A study of Mus musculus with 40 samples.

Results

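GABA-A receptor subunits were followed in the hippocampus and frontal cortex of colonized mice through the 7 genes *Gabra2*, *Gabra3*, *Gabra4*, *Gabra5*, *Gabrb1*, *Gabrb2* and *Gabrd*, taken by gene name from the 47643 Ensembl genes of the count tables. The rule was this list of names, and all 7 genes passed the filter on low counts in every comparison. The recipients were wild-type female Swiss Webster mice, which are outbred, raised germ-free, 6 to 8 weeks old and fed a control diet. Each cohort was gavaged with stool that 1 of 10 children with refractory epilepsy gave before (pre-KD) or during (post-KD) a clinical ketogenic diet, and brain tissue was taken on day 4. This gave 20 cohorts and 40 RNA-seq libraries, 10 per region and condition. Each library was a pool of 6 mice, so the spread between mice was not seen, and hippocampus and frontal cortex of a cohort came from the same mice. Every group carried a human microbiota, and no germ-free control without stool was analysed here.

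GABA-A receptors are pentameric chloride channels opened by the inhibitory transmitter GABA. Receptors that combine alpha and beta subunits with a gamma subunit mostly cluster at synapses and carry fast inhibition. Receptors with the delta subunit, or with alpha5, lie largely outside the synapse and carry tonic inhibition, and the family is the target of benzodiazepines, barbiturates and neurosteroids.

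Of the 7 subunits, *Gabra5*, *Gabrb1* and *Gabra2* were higher in the hippocampus and *Gabrd* was higher in the frontal cortex. The post-KD and pre-KD cohorts were not separated for any subunit after adjustment over all genes. *Gabrb2* had the largest fitted difference post-KD, upward in the hippocampus, on 38 counts over 10 pre-KD and 169 over 10 post-KD libraries.

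*Gabra2* (ENSMUSG00000000560, chr5:70957597-71095849), *Gabra4* (ENSMUSG00000029211, chr5:71569749-71658308) and *Gabrb1* (ENSMUSG00000029212, chr5:71658113-72149037) are neighbours on mouse chromosome 5 in build GRCm38. *Gabra4* and *Gabrb1* lie on opposite strands and overlap by 46 exonic bases at their starts. Whether the counting used strand was not given in the sources used here, so reads from that overlap cannot be told apart. *Gabra5* (ENSMUSG00000055078, chr7:57407672-57510059) shares 148 exonic bases with the antisense gene *Gm9962*, which held 57 counts over all hippocampal libraries and 50 over all frontal cortical ones. *Gabra3* (ENSMUSG00000031343, chrX:72432681-72656848), *Gabrb2* (ENSMUSG00000007653, chr11:42419757-42629028) and *Gabrd* (ENSMUSG00000029054, chr4:155384980-155398112) share no exonic base with another annotated gene.

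The 250 bases upstream of the RefSeq start (GRCm38.p6) are shown for the 3 subunits that were higher in the hippocampus, each 5′ to 3′ on the strand of its gene. The *Gabra2* stretch is chr5:71095850-71096099 (minus strand), that of *Gabra5* is chr7:57510060-57510309 (minus strand), and that of *Gabrb1* is chr5:71699682-71699931 (plus strand). The last belongs to the downstream of 2 listed *Gabrb1* starts, inside the gene span given above, and 81 of its bases lie in an exon of the noncoding antisense gene *Gm38562*. The stretch at the upstream start is not shown because 197 of its bases lie in exons of *Gabra4*. Capitals mark a match to a motif searched on both strands.
Gabra2: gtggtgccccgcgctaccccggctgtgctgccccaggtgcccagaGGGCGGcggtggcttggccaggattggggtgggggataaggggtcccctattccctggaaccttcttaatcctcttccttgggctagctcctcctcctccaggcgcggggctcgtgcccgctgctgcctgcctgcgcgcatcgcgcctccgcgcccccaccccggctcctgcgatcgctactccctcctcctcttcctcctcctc
Gabra5: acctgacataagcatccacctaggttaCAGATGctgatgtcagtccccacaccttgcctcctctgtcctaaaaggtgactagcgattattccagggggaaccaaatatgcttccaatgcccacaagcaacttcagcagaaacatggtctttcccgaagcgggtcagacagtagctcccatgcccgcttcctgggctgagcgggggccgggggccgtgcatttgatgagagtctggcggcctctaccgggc
Gabrb1: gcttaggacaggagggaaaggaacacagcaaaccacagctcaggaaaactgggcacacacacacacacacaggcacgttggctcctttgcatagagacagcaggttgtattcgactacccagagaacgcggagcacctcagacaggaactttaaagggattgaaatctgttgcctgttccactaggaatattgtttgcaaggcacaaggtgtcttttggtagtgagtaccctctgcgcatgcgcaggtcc
The *Gabra2* stretch holds 1 GC box (GGGCGG), a motif present in 33.0% of 32536 upstream stretches of the same length, and its GC content is 70.0% against a median of 52.4%. The *Gabra5* stretch holds 1 E box of the form CATCTG, read here from the other strand, which is present in 14.4% of the stretches. The *Gabrb1* stretch holds none of the motifs searched, which also included the TATA box (TATAAA), the E box of the form CAGCTG and the core of the cyclic AMP response element (TGACG). No motif searched occurs in more than 1 of these 3 stretches.

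Between 1140756 and 1947416 reads per hippocampal library and between 1188447 and 2095352 per frontal cortical library were counted on genes. The 7 subunits together took 0.0587 to 0.109% of hippocampal and 0.05001 to 0.0717% of frontal cortical counts. Levels are given as TMM-normalized CPM, that is, counts scaled to a common library size after correction for composition. Fewer cells of a type and less RNA per cell cannot be told apart in such bulk tissue. The pre-KD hippocampal library of donor 5 was the least like the others of its region (Pearson r of 0.693 with their median profile). The median in that region was 0.821 and the highest value 0.929, and the pre-KD library of donor 7 was close to it at 0.722.

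The first question was how the subunits differ between hippocampus and frontal cortex of the same cohorts. *Gabra5*, which encodes the alpha5 subunit known for its high level in hippocampal pyramidal cells, had a lowest, median and highest level of 37.4, 70.9 and 188 CPM over 20 hippocampal libraries. The frontal cortical values were 9.33, 27.5 and 62.5 CPM. The ranges overlapped, and 19 of 20 cohorts had more *Gabra5* in the hippocampus. The means were 76.4 ± 37.4 CPM and 28.8 ± 12.7 CPM (SD, n = 20), a log2 fold change of 1.40 (SE 0.23, adjusted p = 1.37e-07, edgeR's quasi-likelihood test with Benjamini-Hochberg adjustment and a term for each cohort).

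*Gabrb1* encodes the beta1 subunit. Its lowest, median and highest levels were 214, 289 and 418 CPM in the hippocampus and 119, 191 and 284 CPM in the frontal cortex. Again 19 of 20 cohorts were higher in the hippocampus although the ranges overlapped. The means of 301 ± 63.1 and 187 ± 39.0 CPM (SD, n = 20) gave a log2 fold change of 0.68 (SE 0.10, adjusted p = 1.07e-08 in edgeR). *Gabra2*, whose alpha2 subunit is found at synapses including those on the axon initial segment, ranged from 132 over a median of 287 to 401 CPM in the hippocampus and from 144 over 188 to 268 CPM in the frontal cortex. With 285 ± 72.5 and 193 ± 34.3 CPM (SD, n = 20) its log2 fold change was 0.53 (SE 0.11, adjusted p = 4.93e-05 in edgeR), and 15 of 20 cohorts were higher in the hippocampus.

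*Gabrd* went the other way. The delta subunit it encodes takes the place of gamma in extrasynaptic receptors of dentate granule cells, forebrain and thalamus. Its lowest, median and highest levels were 0, 10.5 and 36.8 CPM in the hippocampus and 13.3, 37.1 and 73.3 CPM in the frontal cortex. The ranges overlapped, 2 hippocampal libraries held no *Gabrd* count, and 19 of 20 cohorts were lower in the hippocampus. The means were 12.6 ± 10.97 and 34.5 ± 14.1 CPM (SD, n = 20), a ratio of 0.366. The fit with a term for each cohort gave a log2 fold change of -1.90 (SE 0.39, adjusted p = 0.000141 in edgeR). Over the other settings the log2 fold change lay between -1.90 and -1.48.

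**Figure D1:**
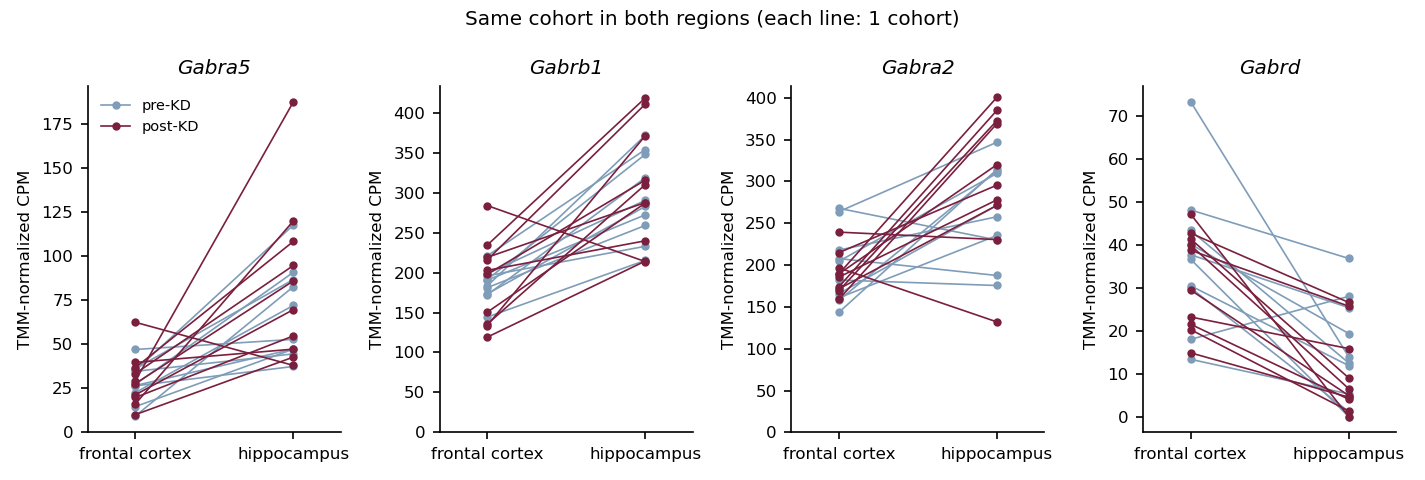
Level of the 4 subunits that differed between regions, in TMM-normalized CPM (vertical axis), in frontal cortex and hippocampus (horizontal axis), with 1 line per cohort and pre-KD and post-KD cohorts in separate colours. Lines climb towards the hippocampus in 19 of 20 cohorts for *Gabra5* and *Gabrb1* and in 15 for *Gabra2*, and descend in 19 for *Gabrd*.

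Thus 4 of 7 subunits passed the adjusted threshold of 0.05 between regions, against 2.85% of the 19422 genes tested, and the same number passed at an unadjusted p under 0.05, against 10.9%. Upward calls were 3 of 7 against 0.87% of all genes, and downward calls were 1 of 7 against 1.98%. The median log2 fold change was -0.12 over the 7 subunits and -0.17 over all genes tested. The 4 calls held when each donor was left out in turn, with a highest adjusted p of 0.00283 for *Gabra2*, and under each other setting tried, with a highest adjusted p of 0.00391 for *Gabrd*. The ranges of the regions overlapped for 7 of 7 subunits, and 0.0721% of all genes had ranges that did not.

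The remaining subunits did not pass. *Gabra4*, which often pairs with delta in the forebrain, had 72.3 ± 31.4 CPM in the hippocampus and 86.4 ± 20.9 CPM in the frontal cortex (SD, n = 20), and was higher in the frontal cortex of 16 cohorts. Its log2 fold change was -0.32 (95% interval -0.66 to 0.02, adjusted p = 0.531 in edgeR). *Gabra3*, an alpha subunit common in deep cortical layers and monoaminergic nuclei, had 84.7 ± 38.1 and 91.8 ± 23.0 CPM, with a log2 fold change of -0.23 (95% interval -0.55 to 0.10). *Gabrb2*, which encodes the beta2 subunit of the most abundant synaptic receptor, had 6.95 ± 7.90 and 6.93 ± 8.13 CPM and a wide interval of -1.86 to 1.62 around a log2 fold change of -0.12.

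Markers of other cell types also differed between the regions, and their part in the results on the subunits was not tested. Striatal neuron markers summed to between 33.0 and 335 CPM in the hippocampus and between 542 and 1167 CPM in the frontal cortex, and 7 of 7 tested were lower in the hippocampus at an adjusted p under 0.05 in edgeR, the threshold for each count that passed here. The eighth, *Drd2*, was at 0 in every hippocampal library and had 5 counts in the frontal cortex. Dentate granule cell markers summed to 138 to 337 CPM in the hippocampus and 74.2 to 214 CPM in the frontal cortex, and 6 of 6 had higher fitted values in the hippocampus, of which 3 passed. Of 8 markers of cortical projection neurons, 7 had lower fitted values in the hippocampus (4 passed) and 1 a higher one (it passed). All 8 interneuron markers had lower fitted values there, of which 3 passed. Choroid plexus markers summed to 458 to 4265 CPM in the hippocampus and 1.57 to 590 CPM in the frontal cortex, with 5 of 5 fitted values higher in the hippocampus, of which 3 passed. Of 5 general neuronal markers 5 had lower fitted values there, of which 2 passed. Of 4 CA1 and 4 CA3 pyramidal cell markers, 0 passed in edgeR (1 CA1 and 0 CA3 markers at an unadjusted p under 0.05).

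The second question was whether the post-KD microbiota was accompanied by other subunit levels than the pre-KD microbiota. In the hippocampus 0 of 7 subunits passed after adjustment, against 0.0057% of 17529 genes. That share rests on the filter, since 1 gene was called with it and 1291 of 20964 with no filter other than 1 count, where again 0 of 7 subunits passed. At an unadjusted p under 0.05, 1 of 7 passed in edgeR, against 10.1% of all genes. DESeq2 and limma-voom also passed 0 after adjustment and 1 without it, against 3.42% and 5.49% of all genes without it.

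That subunit was *Gabrb2*. Its 10 pre-KD hippocampal libraries had a lowest, median and highest level of 0, 2.51 and 8.27 CPM, with 4 libraries at 0, and its post-KD libraries had 0, 10.7 and 31.4 CPM, with 1 library at 0. Post-KD libraries were mostly the higher ones, in 8 of 10 donors, while 1 donor was lower and 1 had no count in either library. The ranges overlapped. Over each group these are 38 and 169 counts, or 2.34 ± 2.60 and 11.6 ± 8.82 CPM (SD, n = 10), and the log2 fold change was 2.26 (SE 1.06, 95% interval 0.16 to 4.36, unadjusted p = 0.0354, adjusted p = 0.403 in edgeR's quasi-likelihood test). With the donor as a replicate block in edgeR the unadjusted p was 0.0811, and without donor 1, 2 or 6 it was 0.0758, 0.0523 and 0.114. The adjusted p lay between 0.315 and 1 over the settings other than leaving out a donor, and between 0.319 and 0.795 when donors were left out.

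**Figure D2:**
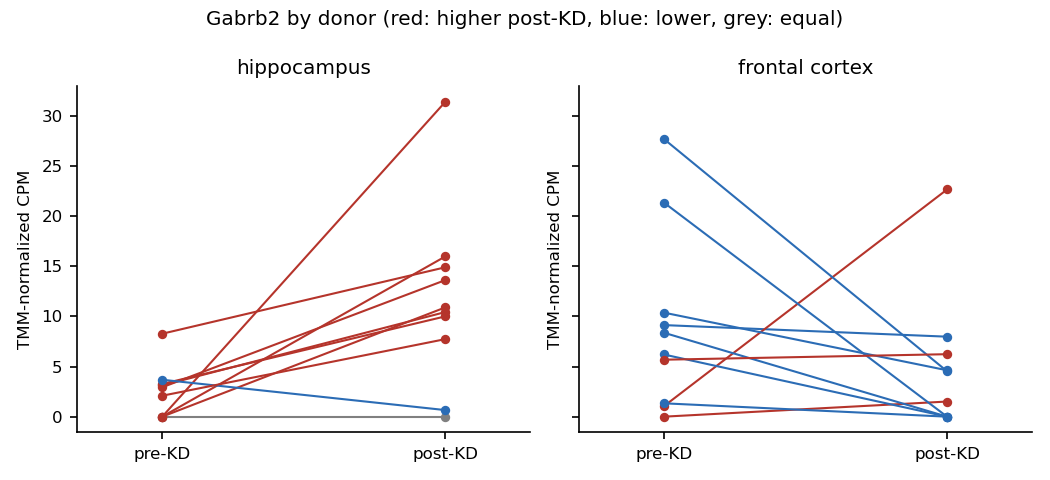
*Gabrb2* in TMM-normalized CPM (vertical axis) in the pre-KD and post-KD libraries (horizontal axis), with 1 line per donor and 1 panel per region. In the hippocampus 8 donors are higher and 1 is lower post-KD, and in the frontal cortex 3 are higher and 7 are lower.

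For the other hippocampal subunits the pre-KD and post-KD ranges overlapped. *Gabra5* averaged 68.0 ± 26.1 CPM in pre-KD libraries and 84.9 ± 45.9 CPM in post-KD ones (SD, n = 10), with a log2 fold change of 0.31 (95% interval -0.22 to 0.85) and 8 of 10 donors higher. *Gabra2* had 264 ± 57.3 and 305 ± 82.9 CPM, with a log2 fold change of 0.20 (95% interval -0.11 to 0.52). *Gabrd* had 15.4 ± 12.01 and 9.85 ± 9.63 CPM, with a log2 fold change of -0.66 (95% interval -2.20 to 0.88). The intervals of *Gabra5* and *Gabrd* leave room for differences of a size that these libraries could not show.

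*Gabrb1*, *Gabra4* and *Gabra3* had hippocampal log2 fold changes of 0.053, 0.10 and 0.063. Their 95% intervals reached from -0.25 to 0.35, from -0.43 to 0.64 and from -0.50 to 0.62. *Gabra3* had 3 counts, or 2.18 CPM, in the pre-KD library of donor 5, the one least like the others, while the post-KD libraries began at 43.5 CPM. Without donor 5 its log2 fold change was -0.17.

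In the frontal cortex 0 of 7 subunits passed after adjustment, against 0.0056% of 17873 genes, and 0 of 7 had an unadjusted p under 0.05 in edgeR, against 9.68% of all genes. At that p DESeq2 also gave 0, against 4.62% of all genes, and limma-voom gave 1, again *Gabrb2*, against 5.99%. *Gabrb2* ranged from 0 over a median of 7.28 to 27.7 CPM pre-KD and from 0 over 3.02 to 22.7 CPM post-KD, with 1 and 4 libraries at 0. The post-KD libraries were lower in 7 of 10 donors, opposite to the hippocampus, with overlapping ranges. Means of 9.12 ± 8.98 and 4.75 ± 6.94 CPM (SD, n = 10) gave a log2 fold change of -0.92 (95% interval -2.55 to 0.71, adjusted p = 0.931 in edgeR). Without donor 3, whose post-KD library held the highest value, it was -1.82 at an unadjusted p = 0.0442 in the edgeR fit across all genes, and with the donor as a replicate block it was -1.75 at an unadjusted p = 0.0434 in DESeq2.

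The other frontal cortical subunits lay closer to no difference. *Gabrd* averaged 37.1 ± 16.7 CPM in pre-KD libraries and 31.9 ± 11.4 CPM in post-KD ones (SD, n = 10) and a log2 fold change of -0.22 (95% interval -0.80 to 0.36). *Gabra5* had 28.0 ± 10.99 and 29.7 ± 14.8 CPM with a log2 fold change of 0.082 (95% interval -0.57 to 0.73). *Gabra2*, *Gabra4*, *Gabrb1* and *Gabra3* had log2 fold changes of -0.063, -0.046, 0.029 and 0.0049, and their intervals stayed between -0.40 and 0.36.

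**Figure D3:**
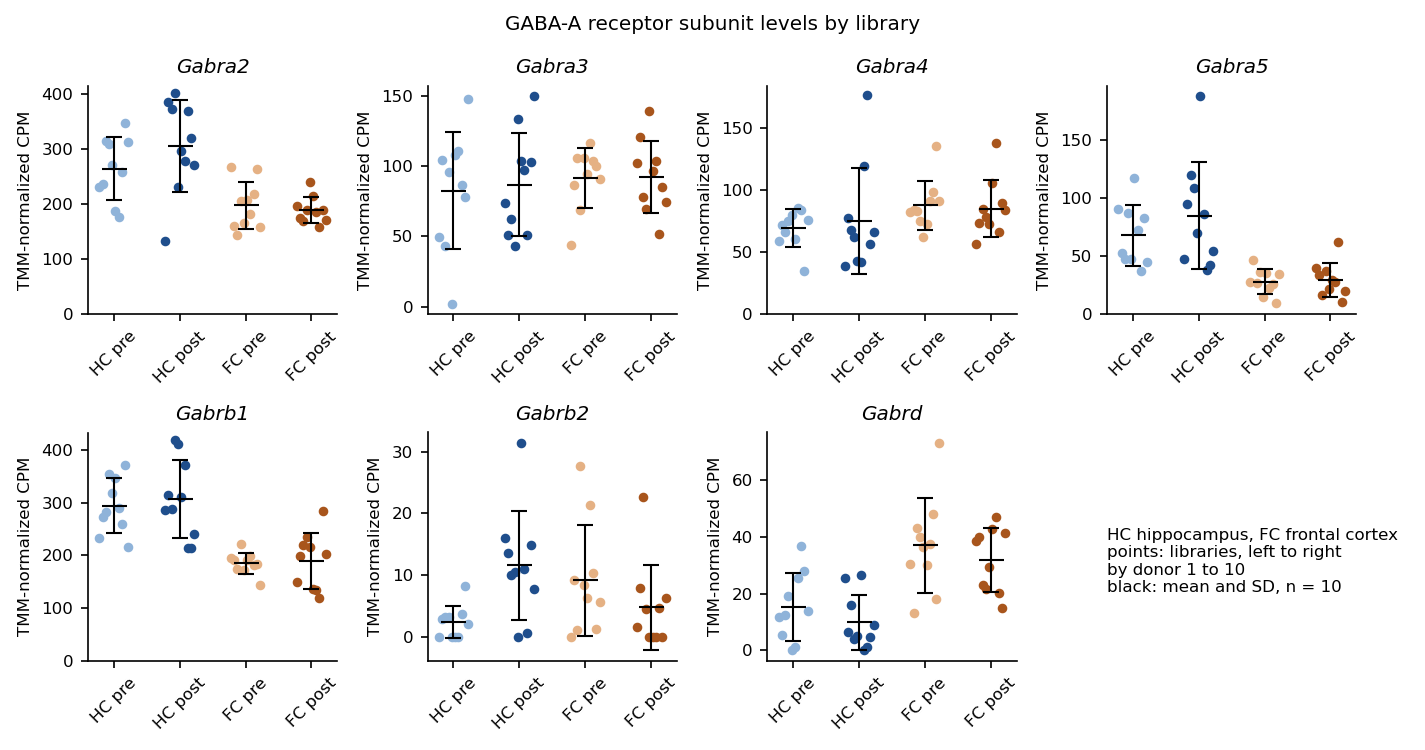
Level of each of the 7 subunits in TMM-normalized CPM (vertical axis) in the 4 groups (horizontal axis), with 1 point per library and black marks for the mean and SD of 10 libraries. Pre-KD and post-KD points overlap in each panel and region, and the hippocampal points of *Gabra5* and *Gabrb1* lie mostly above the frontal cortical ones.

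The third question was whether the change post-KD differed between the regions. For *Gabrb2* the difference of the log2 fold changes, hippocampus minus frontal cortex, was 4.11 in the fit over both regions with a term for each cohort (SE 1.78, 95% interval 0.61 to 7.60, unadjusted p = 0.0214, adjusted p = 1 in edgeR). Without the cohort term it was 3.19, close to the distance between the separate fits of the regions. It lay between 3.09 and 4.11 over the other settings and between 3.13 and 5.13 when donors were left out. As a count of cohorts, 2 of 10 pre-KD cohorts and 7 of 10 post-KD cohorts had more *Gabrb2* in the hippocampus than in the frontal cortex. Of 7 subunits 0 passed after adjustment in edgeR, DESeq2 and limma-voom, against 0.0154% of 19422 genes in edgeR (0.00515% upward and 0.0103% downward), and 1 passed without it in each, against 2.22% of all genes in edgeR, 4.89% in DESeq2 and 3.42% in limma-voom. Without the cohort term edgeR called 348 genes in place of 3, again 0 of them among the 7 subunits. Without donor 6 or donor 7 the unadjusted p of *Gabrb2* was 0.0867 and 0.0838. For the other subunits the difference lay between -0.52 for *Gabrd* and 0.23 for *Gabra5*, and each 95% interval included 0.

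Markers of other cell types also reached an unadjusted p under 0.05 in these comparisons in edgeR, 0 of them after adjustment, and their part in the *Gabrb2* values was not tested. In the hippocampus, where 10.1% of all genes had such a p, these were 2 of 4 CA1 markers (both higher post-KD), 2 of 6 dentate markers (1 higher and 1 lower), 1 of 5 oligodendrocyte markers (higher) and 1 of 7 striatal markers (lower). Over the whole lists, fitted values were higher in 3 and lower in 1 of the CA1 markers, higher in 4 and lower in 2 of the dentate markers, and higher in 1 and lower in 4 of the oligodendrocyte markers. The striatal list had lower fitted values in 7 of 7, and its sum lay between 93.8 and 335 CPM pre-KD and between 33.0 and 224 CPM post-KD. The CA1 list summed to 82.9 to 210 CPM pre-KD and 133 to 305 CPM post-KD. In the frontal cortex, where the share of all genes was 9.68%, they were 2 of 7 striatal markers (both higher, with fitted values of the list higher in 4 and lower in 3, and sums of 542 to 1096 CPM pre-KD and 777 to 1167 CPM post-KD), 1 of 4 CA1 markers (higher, with the list higher in 2 and lower in 2) and 1 of 4 CA3 markers (lower, with the list lower in 4). In the difference between regions, where the share was 2.22%, they were 4 of 7 striatal markers and 1 of 4 endothelial markers, each lower, with fitted values lower in 6 of 7 and 3 of 4.

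**Figure D4:**
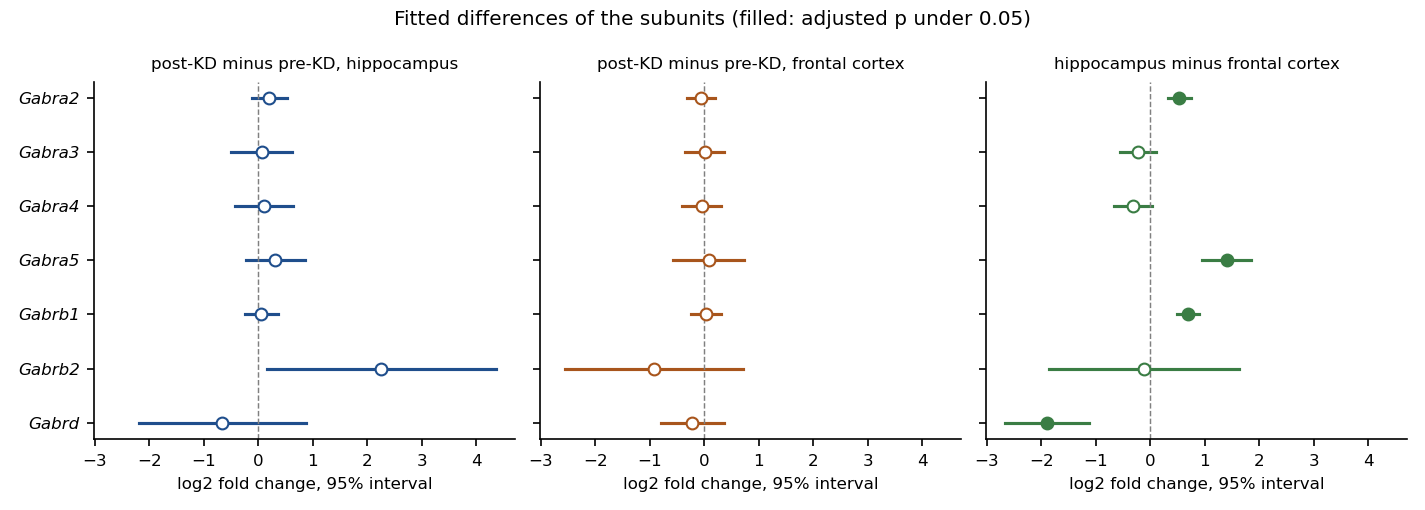
Log2 fold change (horizontal axis, point) with its 95% interval (line) of the 7 subunits (vertical axis) for post-KD minus pre-KD in each region and for hippocampus minus frontal cortex. Filled points, with an adjusted p under 0.05, appear in the panel of regions for *Gabra2*, *Gabra5*, *Gabrb1* and *Gabrd*, and the widest intervals belong to *Gabrb2*.

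The spread between libraries exceeded counting error for each subunit. The coefficient of variation within conditions was 2.93 to 5.24 times the one expected from counting alone, while the median over genes averaging at least 20 counts was 4.04 for hippocampal and 3.31 for frontal cortical libraries. *Gabrb2* had 5 of 20 libraries at 0 in each region, 4 of them pre-KD in the hippocampus and 4 post-KD in the frontal cortex. At the mean level of those groups counting alone would give 0.235 and 0.00247 libraries at 0.

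Levels of different subunits were compared per kb of exon. In the hippocampus the order was *Gabra2* (37.3 ± 9.49 CPM per kb), *Gabra5* (25.7 ± 12.6), *Gabrb1* (21.7 ± 4.56), *Gabra3* (21.6 ± 9.71), *Gabra4* (11.9 ± 5.16), *Gabrd* (4.40 ± 3.82) and *Gabrb2* (1.09 ± 1.24; SD, n = 20). Of the neighbours in that order, *Gabra2* and *Gabra5* (adjusted p = 0.00300), *Gabra4* and *Gabrd* (adjusted p = 0.000200) and *Gabrd* and *Gabrb2* (adjusted p = 0.00425) differed on average in a two-sided permutation test over libraries, adjusted over 12 neighbours. The first of each pair was the higher one in 16, 17 and 16 of 20 libraries. From *Gabra5* over *Gabrb1* and *Gabra3* to *Gabra4*, no step in the order passed.

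In the frontal cortex *Gabra2* (25.3 ± 4.49 CPM per kb) and *Gabra3* (23.4 ± 5.85) led, followed by *Gabra4* (14.2 ± 3.44), *Gabrb1* (13.5 ± 2.82), *Gabrd* (11.997 ± 4.92), *Gabra5* (9.70 ± 4.28) and *Gabrb2* (1.09 ± 1.28; SD, n = 20). Here *Gabra3* and *Gabra4* (adjusted p = 0.000120) and *Gabra5* and *Gabrb2* (adjusted p = 0.000120) differed by the same permutation test. Before division by their 3924 and 6083 exonic bases, *Gabra3* and *Gabra4* were close, at means of 91.8 and 86.4 CPM. By exon length *Gabra5* stood second in the hippocampus and sixth in the frontal cortex, but in the hippocampus its place was 3 by length of coding sequence and 4 by CPM. By both of these *Gabrb1*, with its 13838 exonic bases, stood first in the hippocampus and second in the frontal cortex. The order holds only if counts grow with exon length, and across 9885 protein-coding genes the slope of log2 counts on log2 exon length was 0.24. The sources name a TruSeq and a QuantSeq FWD kit, and with the latter, which reads the 3′ end, counts per kb would not be comparable between genes.

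**Figure D5:**
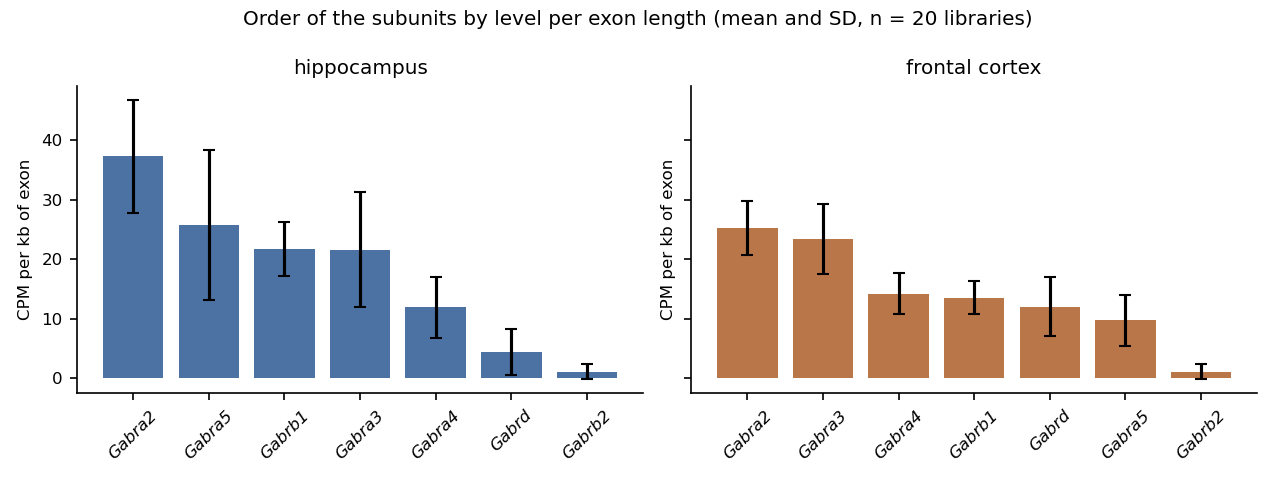
Level of the 7 subunits in CPM per kb of exon (vertical axis), ordered from highest to lowest in each region (horizontal axis), with bars for the mean and lines for the SD of 20 libraries. *Gabra2* leads in both regions at 37.3 and 25.3, and *Gabra5* falls from 25.7 in the hippocampus to 9.70 in the frontal cortex.

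Subunits were also compared with each other across the 20 libraries of a region after the mean of each condition was removed. Of 56 relations, which included those with dentate markers in the hippocampus and striatal markers in the frontal cortex, 0 passed a permutation test after adjustment. The closest was *Gabra5* with *Gabrb1* in the hippocampus (Pearson r = 0.557, permutation p = 0.0112, adjusted p = 0.352, Spearman rho = 0.620, permutation p = 0.00436, adjusted p = 0.244). Without the 2 libraries farthest from the median of *Gabra5*, r was 0.552. In the frontal cortex the same pair had r = -0.472 (permutation p = 0.0354, adjusted p = 0.352) and rho = -0.271 (permutation p = 0.245, adjusted p = 0.780), and r was -0.370 without the 2 farthest libraries.

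The genes whose log2 CPM ran most like each subunit over all 40 libraries were searched among genes averaging at least 20 counts, and these correlations include the difference between regions. *Gabra5* was most like *Igf2* (Pearson r = 0.757), *Bhlhe22* (0.755) and *Cabp7* (0.755), and *Gabrb1* was most like *Nfib* (0.764), *Tanc1* (0.736) and *Pcdh19* (0.721). *Gabra2* was most like *Neurod2* (0.721) and *Ddn* (0.665), and *Gabrd* was most like *Rgs4* (0.781), *Plcb1* (0.779) and *Hist3h2ba* (0.728). *Gabra4* was most like *Homer1* (0.637), *Armcx1* (0.581) and *Fah* (0.581), and *Gabrb2* had the weakest leading values, with *Gatd1* (0.559), *Bsn* (0.545) and *Zfp358* (0.537). The values for *Gabra3* rested on 1 library. *Adcyap1r1* (0.827), *Tmem87b* (0.826) and *Psmc6* (0.801) fell to 0.309, 0.359 and 0.171 without the pre-KD hippocampal library of donor 5.

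The other subunit genes of the family were read as background to the 7. Of 12, 8 could be tested between regions. After adjustment in edgeR, 0 were higher and 2 lower in the hippocampus, against 0.87% and 1.98% of all genes. Among them was *Gabrg3*, a gamma subunit, with 31.4 ± 19.2 and 60.7 ± 19.6 CPM (SD, n = 20; log2 fold change -1.16, adjusted p = 0.000331 in edgeR). Of 20 genes of receptor anchoring, assembly and trafficking, *Nsf*, an ATPase of membrane fusion, was higher in the hippocampus (log2 fold change 0.28, adjusted p = 0.0168 in edgeR) and *Gabarapl1*, a relative of the GABA-A receptor-associated protein, was lower (log2 fold change -0.33, adjusted p = 0.00574 in edgeR). *Nsf* was named after its values were seen. The median log2 fold change was -0.28 over the other subunits, -0.071 over the trafficking genes and -0.17 over all genes tested.

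Between post-KD and pre-KD cohorts 0 genes of these lists passed after adjustment in edgeR in either region. Without adjustment, 1 of 8 other subunits and 1 of 20 trafficking genes passed in the hippocampus, and 1 of 7 and 1 of 20 in the frontal cortex. Over all genes 10.1% and 9.68% had such a p, so these counts are near or under the background. The hippocampal subunit was *Gabra6*, an alpha subunit typical of cerebellar granule cells, whose 47 counts all came from 1 post-KD library (adjusted p = 0.0774 in edgeR). The trafficking gene was *Lhfpl4*, a partner of synaptic receptors, at 109 ± 22.7 CPM in mice given pre-KD stool and 74.2 ± 13.7 CPM in mice given post-KD stool (SD, n = 10; log2 fold change -0.56, adjusted p = 0.218 in edgeR). In the frontal cortex they were *Gabrg3* (log2 fold change 0.44, adjusted p = 0.470 in edgeR) and *Gabarapl1* (log2 fold change -0.24, adjusted p = 0.262 in edgeR). In the test of the difference between regions *Iqsec3* and *Clptm1* came closest, with differences of 0.79 and -0.48 and an adjusted p = 1 for both in edgeR.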

How the data were processed

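RNA from pools of hippocampus and frontal cortex was sequenced, and the authors trimmed reads, aligned them to mm10 with STAR 2.5.2a and counted them with HTSeq 0.6.0, per the methods and the submitters' processing notes. The deposited values are unnormalized counts for 47643 genes in 20 libraries per region. The methods name a TruSeq kit and the key resources table a QuantSeq FWD kit. The annotation release and the strand setting are not given in the sources used here. Positions and exon lengths were taken from GENCODE M21, which held 47224 of the identifiers. Upstream sequences came from RefSeq, where 6 of 7 subunits were matched.

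Groups came from the sample titles. The main test was the quasi-likelihood test of edgeR 4.0.16 (TMM, R 4.3.3) on genes whose counts in a fit summed to 10 or more, with Benjamini-Hochberg adjustment over all genes of a fit. The fits were post-KD against pre-KD in each region, hippocampus against frontal cortex with a term for each cohort, and the region by condition term. Intervals are 95% confidence intervals of the fitted log2 fold change and rest on the spread between libraries. Permutation tests were two-sided with 100000 resamples (scipy 1.17.1, numpy 2.4.6, pandas 2.3.3, Python 3.11.15), on log2(CPM + 1) for relations and log2(CPM per kb + 0.1) for neighbours in the order. Plots were drawn with matplotlib 3.10.9. Alternatives were DESeq2 1.42.0, limma-voom (limma 3.58.1) with quality weights, other filters, RLE size factors, *Gm42418* left out, the donor as a block, no cohort term, and each donor left out in turn. The fits were tested on simulated counts in which 200 genes were changed. At an adjusted p under 0.05, edgeR recovered 18% of 2-fold changes in the hippocampal fit of post-KD against pre-KD. It recovered 29% in the frontal cortical fit, 29% between regions and 4% in the difference between regions. In the same order, 8.13%, 7.89%, 2.93% and 3.13% of unchanged genes had an unadjusted p under 0.05, and 12, 24, 3 and 1 of them passed adjustment.

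Donors pair the cohorts by the origin of the stool. Deviations from the condition means were correlated across genes averaging at least 20 counts: values for the 2 cohorts of a donor were -0.0280 to 0.0299 for hippocampal and -0.0561 to 0.0313 for frontal cortical libraries. Both regions of a cohort came from the same mice, with correlations between -0.0238 and 0.201. The medians were 0.00689 for pre-KD and 0.0157 for post-KD cohorts, and the highest value was that of donor 8 pre-KD. No pair of libraries was identical.

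Genes named are the 7 subunits, the 2 genes of the other lists with the smallest unadjusted p in each fit, and the 3 genes most like each subunit, of which a few results are not reported here. *Nsf* and *Drd2* fall outside this rule and were chosen after their values were seen. *Gm9962* and *Gm38562* also fall outside it and are named for their overlap with subunit genes or the sequence shown. Members and lists were chosen with earlier results of these data known.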

Additional observations from a re-analysis of the deposited data

Results flagged for a closer look

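In 5 of 28 groups of 10 libraries, 1 library stood apart from the rest by Dixon's criterion. About 1 in 20 groups of normally distributed values would meet it by chance. That rate need not hold for the *Gabrb2* groups, which contained libraries without a count. Donor 9 pre-KD gave the lowest *Gabra4* level in the hippocampus (35.0 CPM, next 59.4 CPM) and the highest in the frontal cortex (136 CPM, next 99.0 CPM). For *Gabrb2* the highest hippocampal values were 8.27 CPM pre-KD in donor 9 (next 3.68 CPM) and 31.4 CPM post-KD in donor 6 (next 15.98 CPM). The highest frontal cortical value post-KD was 22.7 CPM in donor 3 (next 7.98 CPM).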

How the results depend on the processing

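The 4 subunits that differed between regions kept their direction and stayed past the adjusted threshold under every setting tried, and 0 subunits passed it in the other 3 comparisons. Over all genes, the calls between regions numbered 554, against 1033 in DESeq2 and 1935 without the cohort term (no replicate block), and in the difference between regions 3, against 0 in DESeq2, 0 under filterByExpr, 1 in limma-voom and 348 without the cohort term. Post-KD against pre-KD they numbered 1 in the hippocampus, against 1291 without the filter on low counts and 0 in DESeq2, under filterByExpr and with either block, and 1 in the frontal cortex, against 2 in DESeq2, 3 in limma-voom, and 3 and 12 with the block in edgeR and DESeq2. The median log2 fold change of all genes between regions was -0.17, -0.0028 in limma-voom and -0.025 without the cohort term. In the hippocampus the count at an unadjusted p under 0.05 was 1, and 0 with the donor as a replicate block in edgeR and 0 under filterByExpr, which removed *Gabrb2* from the test. In the frontal cortex it was 0, and 1 in limma-voom and 1 with the replicate block in DESeq2. It ranged from 0 to 1 over the donors left out in both regions and in the difference between regions.

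Reversed directions concerned log2 fold changes that did not pass, and their cause was not tested. In limma-voom these were hippocampal *Gabra4* (-0.10) and frontal cortical *Gabra2* (0.0016), *Gabra3* (-0.064) and *Gabrb1* (-5.37e-05). With the donor as a replicate block in edgeR they were hippocampal *Gabra4* (-0.019) and frontal cortical *Gabra3* (-0.0030) and *Gabrb1* (-0.013), and in DESeq2 *Gabrb1* (-0.0056). The block changed no other call. Over the donors left out, hippocampal *Gabra3* ranged from -0.17 to 0.18 and *Gabra4* from -0.086 to 0.19, and frontal cortical *Gabra3* from -0.093 to 0.087, *Gabra4* from -0.15 to 0.035, *Gabra5* from -0.12 to 0.17 and *Gabrb1* from -0.055 to 0.084. Between regions *Gabrb2* ranged from -0.65 to 0.25, and in the difference between regions *Gabra3* ranged from -0.16 to 0.35, *Gabra4* from -0.15 to 0.14 and *Gabrb1* from -0.049 to 0.21. *Gabrb2* rests on the fewest counts of the 7 subunits, with 207 over all hippocampal and 237 over all frontal cortical libraries.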
